A study of Rattus norvegicus with 11 samples.

Results

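The 10 genes of the activated phagocyte state that takes its name from Trem2 and Apoe were followed in the rat striatum after intracerebral hemorrhage. These are Trem2, Tyrobp, Apoe, Gpnmb, Spp1, Lpl, Cst7, Itgax, Lgals3 and Cd9, chosen by their symbols, and all 10 were found among the 30560 genes of the expression matrix and passed the filter on low counts that left 15742 genes. Cst7 and Itgax, with fewer than 10 counts in each Normal rat, passed it through the hemorrhage groups. The striatum of 11 adult male Sprague-Dawley rats was sequenced at day 3, with 1 library per rat. Common hemorrhage (IC, n = 3) was made with 0.2 U of bacterial collagenase VII-S in 1.0 μL injected into the right striatum, and severe hemorrhage (IS, n = 3) with 0.6 U in 3.0 μL. The aspirated group (IS-HA, n = 3) received the IS dose and had 150 μL of the hematoma withdrawn through a catheter 6 h later. The Normal group (n = 2) had neither injection nor aspiration, so the hemorrhage groups differ from it by surgery, needle and enzyme as well as by blood. RNA came from pieces of striatum of the injected side, or of the matching region in Normal, with no cell sorting.

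Collagenase breaks down the wall of small vessels, and the blood that enters the tissue draws in microglia and blood-derived macrophages that take up red cells, myelin and dead neurons. TREM2 is a surface receptor of these phagocytes that binds lipids, lipoproteins and cell debris, and it signals through its adaptor TYROBP (DAP12), which recruits the kinase SYK. Apolipoprotein E is both a ligand of TREM2 and the main lipid carrier of the brain, made by astrocytes at rest and also by phagocytes loaded with lipid. Disease-associated microglia, lipid-associated macrophages and foam cells share a program of lipid handling, lysosome and matrix genes to which the remaining members belong, and in mouse models of amyloid disease its later stage depends on Trem2.

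Counts assigned to genes ranged from 6701301 in IS-HA replicate 2 to 18817645 in IC replicate 3, so the limit of detection of 3 counts was 0.448 CPM in the smallest library and 0.159 CPM in the largest. Replicates are separate animals. IS replicate 4 and IS-HA replicate 2 were the 2 smallest libraries and stood apart from their groups, with a chi-square per degree of freedom of 44.8 and 49.7 between IS replicate 4 and the other IS rats against 17.01 between those, and of 72.3 and 92.9 between IS-HA replicate 2 and the other IS-HA rats against 12.1 between those. Results for the members that change most without either are also given without it. The defining markers of striatal neurons were present in every group: the summed level of 10 neuron genes was 7345 and 7655 TPM in the Normal rats.

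The whole set of members took up 0.325% and 0.227% of all TPM, a level per gene length that sums to the same total in each rat, in the 2 Normal rats. Their summed share was 0.801%, 1.69% and 1.40% in the IC rats, 2.02%, 1.95% and 4.65% in the IS rats, and 1.31%, 2.74% and 1.26% in the IS-HA rats. Every hemorrhage rat stood above both Normal rats. Apoe alone accounted for 0.309% and 0.213% in Normal, so that it made up nearly all of the resting share. Spp1 was the gene that joined it after hemorrhage, ranking between the 7th and the 36th most abundant gene of the 9 hemorrhage libraries by TPM, where it had ranked 14702nd and 12469th in the Normal ones.

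**Figure D1:**
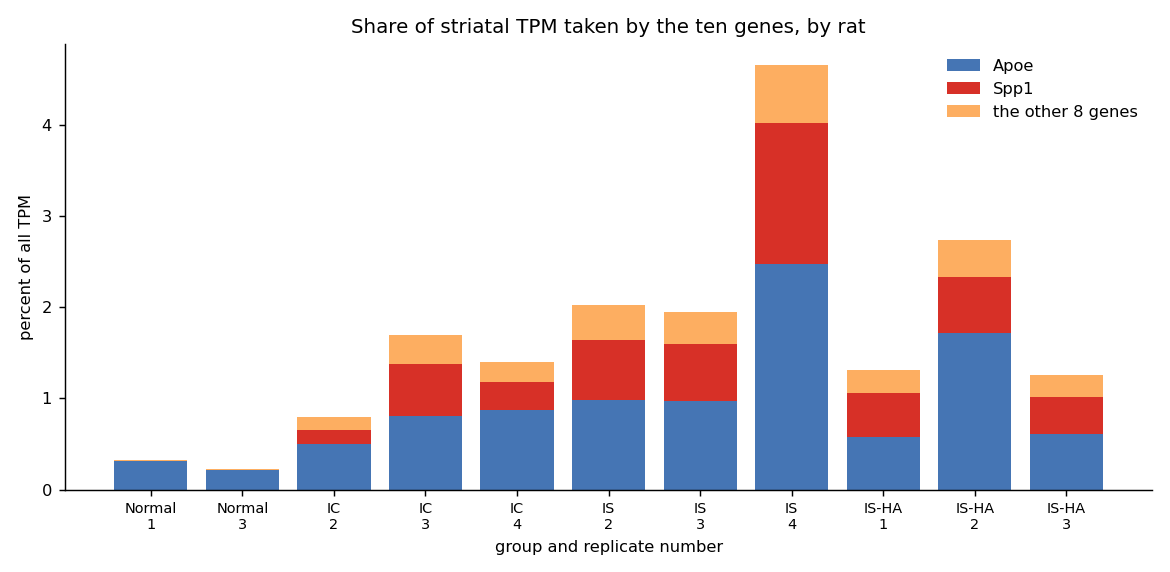
Bars show, for each of the 11 rats, the percent of all TPM taken by Apoe (blue), Spp1 (red) and the other 8 genes (orange), with the axis starting at 0. The Normal bars are 0.325% and 0.227% high and nearly all Apoe, while the tallest bar is that of IS replicate 4 at 4.65%.

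The receptor Trem2 (ENSRNOG00000013578) was low in Normal striatum, at 11.03 and 9.62 TPM. It was at 126, 189 and 157 TPM in IC, at 191, 197 and 338 TPM in IS, and at 155, 315 and 140 TPM in IS-HA. No hemorrhage rat overlapped a Normal rat, and the highest level in IS and in IS-HA came from IS replicate 4 and IS-HA replicate 2. The fitted log2 fold change against Normal was 3.87 ± 0.54 (SE) in IC, 4.58 ± 0.56 in IS and 4.36 ± 0.55 in IS-HA, with adjusted p of 0.000819, 0.000170 and 0.000363 by edgeR's quasi-likelihood test. A gene is called here when that p, adjusted by Benjamini-Hochberg over the 15742 genes, is under 0.05 and the log2 fold change is at least 1 either way.

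The adaptor Tyrobp (ENSRNOG00000020845) stood at 33.0 and 20.4 TPM in Normal. Its levels were 395, 624 and 502 TPM in IC, 869, 853 and 1626 TPM in IS, and 502, 1218 and 564 TPM in IS-HA. Against Normal it rose by a log2 fold change of 4.18 ± 0.62 in IC (adjusted p = 0.00110), 5.41 ± 0.66 in IS (adjusted p = 0.000163) and 4.89 ± 0.64 in IS-HA (adjusted p = 0.000432). Receptor and adaptor kept different proportions in the groups: the ratio of Trem2 to Tyrobp TPM was 0.303 to 0.320 in the 3 IC rats and 0.208 to 0.231 in the 3 IS rats, which do not overlap, while the IS-HA rats ranged from 0.249 to 0.309 and the Normal rats were at 0.335 and 0.472. These ratios are descriptions with no test.

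Apoe (ENSRNOG00000018454), the ligand and lipid carrier, was the only member that was abundant at rest, at 3092 and 2134 TPM in Normal. It was at 5007, 8079 and 8772 TPM in IC, 9813, 9727 and 24777 TPM in IS, and 5800, 17191 and 6151 TPM in IS-HA. Every hemorrhage rat was above both Normal rats, but IS replicate 4 and IS-HA replicate 2 held more than 2 times the level of the other rats of their groups. The log2 fold change against Normal was 1.42 ± 0.67 in IC, which was not called (adjusted p = 0.159), 2.54 ± 0.71 in IS (adjusted p = 0.0134) and 1.98 ± 0.69 in IS-HA (adjusted p = 0.0493). The call in IS was lost without Normal replicate 3 (log2 fold change 2.24, adjusted p = 0.111). The call in IS-HA was lost without either Normal rat, any IC rat, IS replicate 2 or 3, or IS-HA replicate 2, at adjusted p of 0.0532 to 0.269, and the log2 fold change was 1.04 without IS-HA replicate 2. It was also lost when edgeR used the scaling of DESeq2 (adjusted p = 0.0524), and with limma-trend on log2(TPM + 1) (0.0512) and only the groups compared (0.106). In IC, Apoe was called when IS-HA replicate 2 was left out (log2 fold change 1.42, adjusted p = 0.0448), with limma's voom and quality weights (1.45, adjusted p = 0.0126) and with only the groups compared (1.42, adjusted p = 0.0147). Astrocytes also make Apoe: the summed level of 8 astrocyte genes was 2841 to 2906 TPM in Normal, 6050 to 8295 in IC, 3399 to 6006 in IS and 4789 to 6397 in IS-HA, with none of the 8 genes at 0 in any group. Of these, only Gfap, the intermediate filament of reactive astrocytes, was called higher in IS and only Slc1a2, a glutamate transporter, lower, and the part of astrocytes in the Apoe level was not tested.

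Among the secreted and surface products, Spp1 (ENSRNOG00000043451), which encodes the phosphoprotein osteopontin that binds integrins and CD44, had the largest fitted rise of all 15742 genes in all 3 comparisons with Normal. It was nearly absent at rest, at 0.998 and 3.57 TPM, or 12 and 42 counts. It reached 1510, 5705 and 3072 TPM in IC, 6644, 6236 and 15434 TPM in IS, and 4803, 6145 and 3992 TPM in IS-HA. The log2 fold change was 10.504 ± 1.01 in IC (adjusted p = 0.000126), 12.08 ± 1.06 in IS (adjusted p = 3.57e-05) and 11.14 ± 1.03 in IS-HA (adjusted p = 8.25e-05). The 2 Normal rats differed from each other by more than 3 times, and the pooled CPM ratio of IS to Normal was 4270, with a counting interval (exact, 95%) of 3273 to 5685 that does not cover this difference between animals.

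Gpnmb (ENSRNOG00000008816), a transmembrane glycoprotein of lysosome-rich phagocytes, was at 7.93 and 7.53 TPM in Normal. It was at 586, 1474 and 1002 TPM in IC, 1703, 1495 and 2715 TPM in IS, and 1216, 1467 and 1060 TPM in IS-HA. The lowest hemorrhage rat thus stood far above both Normal rats, at log2 fold changes of 6.98 ± 0.57 in IC (adjusted p = 0.000115), 8.02 ± 0.60 in IS (adjusted p = 3.13e-05) and 7.35 ± 0.58 in IS-HA (adjusted p = 6.44e-05).

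Lgals3 (ENSRNOG00000010645), which encodes galectin-3, a sugar-binding protein released by phagocytes and recruited to damaged lysosomes, was at 2.80 and 2.31 TPM in Normal. Its levels were 212, 581 and 354 TPM in IC, 800, 766 and 1440 TPM in IS, and 428, 867 and 446 TPM in IS-HA. It rose by a log2 fold change of 7.15 ± 0.74 in IC (adjusted p = 0.000185), 8.64 ± 0.78 in IS (adjusted p = 3.70e-05) and 7.88 ± 0.76 in IS-HA (adjusted p = 9.50e-05). Spp1, Lgals3 and Gpnmb were the 3 members with the largest rises in each hemorrhage group, and each ranked among the first 47 of all genes tested in each comparison.

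A pair of members stayed scarce even where they rose. Itgax (ENSRNOG00000036703), the integrin chain CD11c of activated microglia and dendritic cells, was at 0.153 and 0.105 TPM in Normal (6 and 4 counts), at 4.13, 7.199 and 5.28 TPM in IC, at 6.54, 12.8 and 18.2 TPM in IS, and at 7.61, 5.58 and 12.7 TPM in IS-HA. Its log2 fold change was 5.32 ± 0.64 in IC (adjusted p = 0.000358), 6.59 ± 0.65 in IS (adjusted p = 5.78e-05) and 5.97 ± 0.65 in IS-HA (adjusted p = 0.000155). Unlike Trem2, Tyrobp and Apoe, it was lowest in IS-HA replicate 2 among the IS-HA rats. Of 8 dendritic cell genes, 5 were called higher in IC and 7 in each of IS and IS-HA, and 0 lower. Without IS replicate 4 the count in IS was 5, and without IS-HA replicate 2 that in IS-HA was 6. Of all tested genes, 10.9%, 18.8% and 15.1% were called higher in IC, IS and IS-HA with all rats kept. No such share was computed without either rat. The summed level of the 8 dendritic cell genes was 10.9 to 11.1 TPM in Normal, 31.5 to 60.7 in IC, 84.0 to 239 in IS and 47.0 to 75.9 in IS-HA. None of the 8 was at 0 in any group, and their part in the Itgax level was not tested.

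Cst7 (ENSRNOG00000006767), cystatin F, an inhibitor of lysosomal cathepsins, was at 0.106 and 0.216 TPM in Normal, which is 1 and 2 counts. It was at 2.99, 7.94 and 4.01 TPM in IC, 4.28, 12.6 and 24.2 TPM in IS, and 6.45, 10.7 and 6.38 TPM in IS-HA. With so few counts at rest the fold is poorly fixed: the ratio of pooled CPM to Normal was 35.01 in IC (exact 95% counting interval 11.7 to 172), 87.0 in IS (29.4 to 425) and 49.4 in IS-HA (16.6 to 243). The test called it in all 3 groups, at adjusted p of 0.0105 in IC, 0.000867 in IS and 0.00348 in IS-HA. The call in IC was lost without Normal replicate 1 (adjusted p = 0.0847) or without Normal replicate 3 (adjusted p = 0.0973).

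Cd9 and Lpl set themselves apart from the rest. Cd9 (ENSRNOG00000019556), a tetraspanin of cell membranes that is also abundant in myelinating glia, was at 75.0 and 72.4 TPM in Normal and rose modestly to 144, 229 and 134 TPM in IC, 177, 165 and 155 TPM in IS, and 165, 163 and 162 TPM in IS-HA. Its log2 fold change was 1.13 ± 0.22 in IC (adjusted p = 0.00572), 1.18 ± 0.22 in IS (adjusted p = 0.00177) and 1.14 ± 0.22 in IS-HA (adjusted p = 0.00379). The 3 fold changes lay close together and near the fold limit: Cd9 was no longer called in IC without IC replicate 3 (log2 fold change 0.90) or Normal replicate 3 (1.04, adjusted p = 0.0875), nor in IS-HA without Normal replicate 3 (1.05, adjusted p = 0.0554). The 8 oligodendrocyte genes, which mark myelinating cells, summed to 17901 to 18487 TPM in Normal, 10718 to 15366 in IC, 6380 to 10713 in IS and 10006 to 15127 in IS-HA, with none at 0 in any group, and their part in the Cd9 level was not tested.

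Lpl (ENSRNOG00000012181), lipoprotein lipase, which frees fatty acids from lipoproteins, was at 24.7 and 23.9 TPM in Normal, 20.8, 27.3 and 17.4 TPM in IC, 26.7, 21.8 and 16.6 TPM in IS, and 32.0, 16.9 and 27.3 TPM in IS-HA. The Normal values lay within the range of every hemorrhage group. The log2 fold change was -0.22 ± 0.22 in IC, -0.16 ± 0.22 in IS and 0.02 ± 0.22 in IS-HA, with adjusted p of 0.508, 0.563 and 0.948 by edgeR's quasi-likelihood test. Striatal neurons, which also express Lpl, lost markers over the same groups: 10 neuron genes summed to 7345 to 7655 TPM in Normal, 2996 to 6005 in IC, 1480 to 3792 in IS and 2419 to 4039 in IS-HA, none at 0 in any group, and the part of neurons in the Lpl level was not tested.

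**Figure D2:**
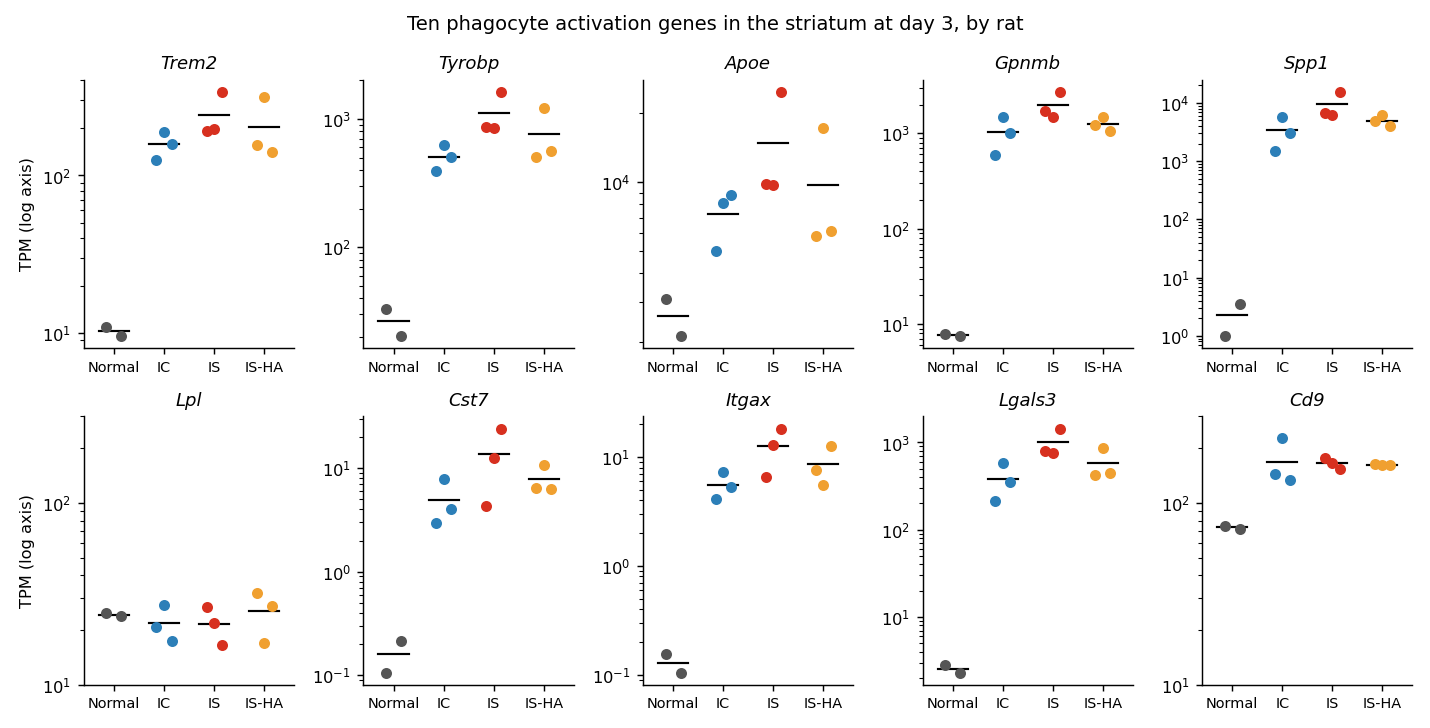
Each panel shows 1 gene, with a point per rat and a line at the group mean, TPM on a log axis, for Normal (n = 2), IC, IS and IS-HA (n = 3 each). In all panels but that of Lpl every hemorrhage rat lies above both Normal rats, and Spp1 spans from 0.998 to 15434 TPM. The share of all tested genes that did the same was not computed, so nothing about the set is read from it.

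Read together against Normal, 8 of the 10 members were called higher in IC, where 10.9% of all tested genes were called higher, and those not called were Apoe and Lpl. In IS 9 members were called higher against 18.8% of all genes, and in IS-HA 9 against 15.1%, Lpl being the exception both times. Among those called, Cst7 and Itgax passed the filter on low counts through the hemorrhage groups, so their calls are not independent of that filter. No member was called lower, as were 2.66%, 17% and 7.71% of all genes in IC, IS and IS-HA. The median log2 fold change of the members was 4.47, 5.86 and 5.19, and that of all tested genes was 0.00, 0.02 and 0.06. The 3 comparisons share the same Normal rats. In a bulk sample, more phagocytes in the tissue and more RNA of a gene per phagocyte cannot be told apart.

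**Figure D3:**
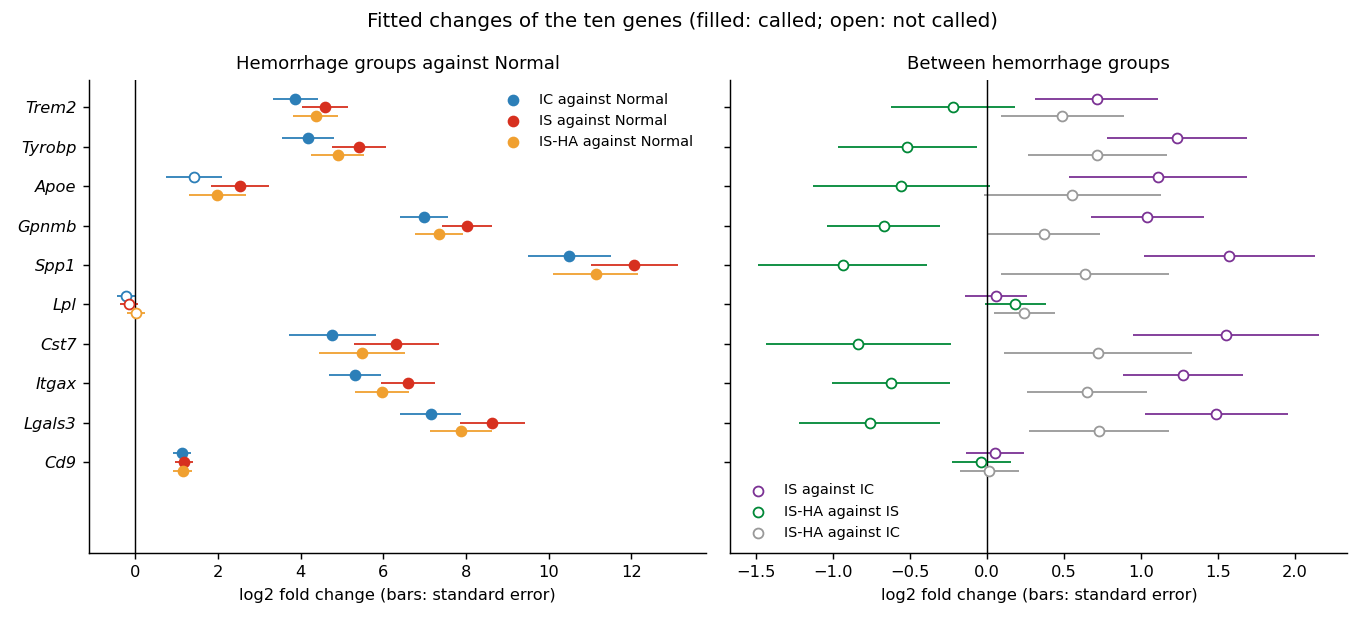
Points show the fitted log2 fold change of each gene with its standard error as a bar, on the left for IC, IS and IS-HA against Normal and on the right between hemorrhage groups on a narrower axis, filled where called and open where not. On the left only Apoe in IC and Lpl in all 3 groups are open, and on the right every point is open.

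Severe hemorrhage was then set against common hemorrhage, as IS against IC. The 2 groups differ in collagenase dose (0.6 against 0.2 U), injected volume (3.0 against 1.0 μL) and size of the hemorrhage. These cannot be told apart here. For 6 members the groups did not overlap, every IS rat standing above every IC rat: Trem2, Tyrobp, Apoe, Gpnmb, Spp1 and Lgals3 in TPM and in CPM, where 19.2% of all tested genes did the same in CPM. None of the 10 members was called by edgeR, nor was any other gene (0% of 15742), although 3498 genes and 6 members had an unadjusted p under 0.05 and DESeq2's Wald test called 603 genes. The log2 fold change was 1.57 ± 0.56 for Spp1 (adjusted p = 0.170), 1.55 ± 0.60 for Cst7 (adjusted p = 0.187), 1.49 ± 0.46 for Lgals3 (adjusted p = 0.156), 1.27 ± 0.39 for Itgax (adjusted p = 0.156), 1.23 ± 0.45 for Tyrobp (adjusted p = 0.177) and 1.04 ± 0.37 for Gpnmb (adjusted p = 0.171). It was 1.11 ± 0.58 for Apoe and 0.71 ± 0.40 for Trem2, at adjusted p of 0.270 and 0.303. For Lpl and Cd9 it was 0.06 ± 0.20 and 0.05 ± 0.19. Without IS replicate 4 the values were smaller, at 0.43 for Apoe, 0.33 for Trem2, 0.67 for Gpnmb, 0.79 for Tyrobp, 0.81 for Cst7, 0.85 for Itgax, 0.94 for Spp1 and 1.06 for Lgals3, with adjusted p of at least 0.478 for all members. With all rats kept, the 10 values were above 0, with a median of 1.17 against -0.00 for all genes, and the values of Lpl and Cd9 were smaller than their errors. Without IS-HA replicate 2, which is in neither group but adds to the shared estimate of spread, 3 members were called: Tyrobp (log2 fold change 1.23, adjusted p = 0.0339), Itgax (1.27, adjusted p = 0.0498) and Lgals3 (1.49, adjusted p = 0.0317), where 6.14% of all tested genes were called. DESeq2 called Itgax and Lgals3 and 3.83% of all genes, and limma's voom with quality weights called Tyrobp, Spp1 and Lgals3 and 4.95% of all genes.

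Aspiration was addressed by IS-HA against IS. No member was called, and 0.00635% of all tested genes were (1 gene), while 1408 genes and 0 members had an unadjusted p under 0.05 and DESeq2 called 63 genes and 0 members. Of the 10 fitted values 9 were below 0, from a log2 fold change of -0.94 ± 0.55 for Spp1 through -0.84 ± 0.60 for Cst7, -0.76 ± 0.46 for Lgals3, -0.67 ± 0.37 for Gpnmb and -0.62 ± 0.39 for Itgax to -0.56 ± 0.57 for Apoe, -0.52 ± 0.45 for Tyrobp, -0.22 ± 0.40 for Trem2 and -0.04 ± 0.19 for Cd9, with Lpl at 0.18 ± 0.20. Every adjusted p was at least 0.576. In TPM every IS-HA rat was below every IS rat for Gpnmb and Spp1, 2 of the 10 members, where 6.37% of all tested genes did so. In CPM no member did so, where 5.42% of all genes did.

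These values depended on which rats were kept. Without IS-HA replicate 2 the log2 fold change was -0.88 for Trem2, -1.24 for Tyrobp, -1.49 for Apoe and -1.37 for Lgals3, at adjusted p of 0.0636 to 0.0855, and still 0 members were called. Without IS replicate 4 it turned to 0.16 for Trem2 and 0.12 for Apoe. IS-HA replicate 2 held 17191 TPM of Apoe, where the other IS-HA rats held 5800 and 6151, so the group of 3 spanned from below all IS rats to within their range.

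The mean TPM of IS-HA thus lay between those of the other hemorrhage groups for 8 members, from Trem2 (158 in IC, 204 in IS-HA, 242 in IS) to Spp1 (3429, 4980 and 9438), Lpl and Cd9 being the exceptions. For Trem2 and Apoe the high mean of IS-HA came from IS-HA replicate 2. Their IS-HA medians were 155 and 6151 TPM, below the IC medians of 157 and 8079 TPM. Against IC, no member and no other gene was called in IS-HA (0% of 15742) by edgeR, with 782 genes and 0 members at an unadjusted p under 0.05 and 18 genes called by DESeq2. All 10 fitted values were above 0, from 0.01 ± 0.19 for Cd9 to 0.73 ± 0.45 for Lgals3, and without IS-HA replicate 2 those of Trem2, Tyrobp, Apoe and Cd9 were -0.17, -0.01, -0.38 and -0.12.

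To set the members against phagocyte genes that do not define the state, each was expressed as its log2 CPM minus the mean log2 CPM of Aif1, Csf1r, Itgam and Spi1, with a pseudocount of 0.5. These 4 markers of microglia and macrophages summed to 73.1 to 89.3 TPM in Normal, 422 to 532 in IC, 545 to 717 in IS and 525 to 628 in IS-HA. They did not rise alike: the log2 fold change in IS was 2.15 for Csf1r, 2.79 for Itgam, 3.82 for Aif1 and 4.53 for Spi1.

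Against the mean of these markers, 6 members rose further, with every hemorrhage rat above both Normal rats. Of all tested genes, 1.04% did so. The difference in this log2 ratio between the 9 hemorrhage and the 2 Normal rats was 7.86 for Spp1, from -3.22 ± 1.199 (SD) to 4.65 ± 0.66. It was 4.47 for Lgals3, from -2.86 ± 0.09 to 1.61 ± 0.61, and 4.33 for Gpnmb, from -0.77 ± 0.19 to 3.55 ± 0.37. It was smaller for Tyrobp (1.68), Itgax (1.57) and Trem2 (1.11). Each of these differences had a two-sided exact permutation p of 0.0364, the smallest that 2 of 11 rats allow, computed for 10 genes in 3 comparisons and not adjusted. Itgax was at 0.373 and 0.232 CPM in Normal, below the pseudocount, which makes its difference smaller. Its fitted log2 fold changes in IC, IS and IS-HA against Normal were 5.32, 6.59 and 5.97. Those of Tyrobp were lower, at 4.18, 5.41 and 4.89, so the order of Itgax and Tyrobp is not read from this ratio. Trem2 itself moved from -1.14 ± 0.11 to -0.03 ± 0.37, so that it stood near the mean level of the markers after hemorrhage. Its log2 fold changes in IC, IS and IS-HA against Normal were 3.87, 4.58 and 4.36. Those of Spi1 were 3.38, 4.53 and 4.16, and Spi1 alone was not tried as marker.

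A further 3 members fell behind the mean of the markers without overlap, as 94.5% of all tested genes did: Lpl by 3.12, Cd9 by 1.85 and Apoe by 1.15 on the log2 scale. They share this with nearly all of the transcriptome, and nothing about these members is read from it. Cst7 overlapped (difference -0.02, exact permutation p = 0.945), and with a pseudocount of 0.1 its difference was 1.42, so its 3 counts at rest decide the value. With Aif1 alone as marker, Itgax differed by 1.11 and its exact p was above the smallest possible. With Csf1r alone, Apoe differed by -0.27.

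Between IS and IC, 5 members stood higher relative to the markers in every IS rat, where 4.07% of all tested genes did: Spp1 by 1.12, Lgals3 by 1.03, Tyrobp by 0.68, Gpnmb by 0.58 and Trem2 by 0.17. The exact permutation p of each was 0.1, the smallest that 3 against 3 rats allow. With Aif1 alone as marker, 2 members, Lgals3 and Tyrobp, stood above and Cd9 below, against 1.18% and 60% of all genes, and the difference of Trem2 was -0.07. Without IS replicate 2, 7 members stood above and Cd9 below, against 4.59% and 53.1% of all genes. Between IS-HA and IS, 0 members lay below without overlap, against 1.86% of all genes, while without IS-HA replicate 2 there were 6 below and 1, Lpl, above, against 7.64% and 39.7% of all genes.

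**Figure D4:**
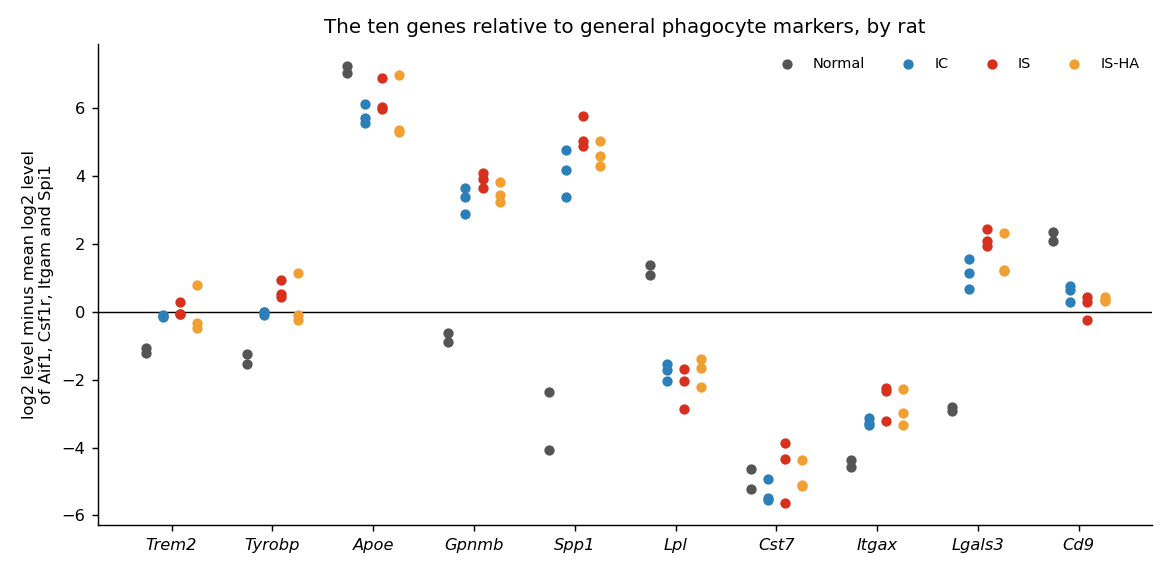
Points are rats, placed by the log2 CPM of each gene minus the mean log2 CPM of Aif1, Csf1r, Itgam and Spi1, with the line at 0 where the gene equals the markers. Spp1, Lgals3 and Gpnmb lie below 0 in Normal (grey) and above 0 in all 9 hemorrhage rats, while Apoe, Lpl and Cd9 lie highest in Normal.

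Among all 15742 tested genes, those whose log2 CPM ran closest to that of Trem2 were found by the smallest SD, over the 11 rats, of the difference in log2 CPM. The nearest was Dnase2, the lysosomal DNase that digests the DNA of engulfed cells, with an SD of 0.184. It was followed by Rac2, a GTPase of phagocytes (0.214), Fcer1g, the adaptor chain of activating Fc receptors (0.229), Tnfaip8l2 (0.242) and Knstrn (0.247). Of the members, Tyrobp was the nearest, at rank 31 with an SD of 0.329, and Spp1 was the farthest, at rank 15468 with 2.80. The general markers Spi1 and Aif1, at ranks 12 and 16, ran closer to Trem2 than any other member did. The points share the contrast of hemorrhage with Normal, and the measure is a description. It is small only where a gene changes by a similar fold to Trem2. Spp1, which rose in every hemorrhage rat by a larger fold, therefore ranks behind the unchanged Lpl (rank 9033, SD 1.84).

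Receptors of the Trem family and related ones, adaptors, the signaling chain below TYROBP and the proteases that shed TREM2 were read as a list. It held 16 genes, 14 of which passed the filter on low counts. In IC, IS and IS-HA alike, 12 were called higher and 0 lower. For this list and those below, the shares of all tested genes called higher were 10.9% in IC, 18.8% in IS and 15.1% in IS-HA with all rats kept. No share was computed for the list counts given without IS replicate 4 or IS-HA replicate 2. Trem1, the inflammatory receptor of the same cluster as Trem2, was at 0 counts in both Normal rats and stood at least 75.4-fold higher in IC, 196-fold higher in IS and 70.8-fold higher in IS-HA, against a floor of 3 counts over the Normal group. Trem3 was also at 0 in Normal and at least 19.4-fold, 47.0-fold and 25.5-fold higher. Hcst (DAP10), the adaptor that pairs with TYROBP, rose by 5.57 on the log2 scale in IS, Syk by 4.397, Vav1 by 4.73, Btk by 3.87 and Plcg2, the phospholipase below TREM2, by 2.95. The phosphatases that restrain the pathway rose as well, Ptpn6 (SHP-1) by 4.04 and Inpp5d (SHIP1) by 2.44. Of the proteases that shed TREM2 from the surface, Adam17 rose by 1.49 and Adam10 stood at 0.21, not called.

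The lipoprotein partners of Apoe and Lpl were mixed. Of 16 tested genes of 18, 7 were called higher in IC, 9 in IS (7 without IS replicate 4) and 7 in IS-HA, and 1, Vldlr, was called lower in all 3. The rise was led by Plin2, the coat protein of lipid droplets, with a log2 fold change in IS of 5.41, and by Angptl4, a secreted inhibitor of lipoprotein lipase, with 3.68. Soat1, which esterifies cholesterol for storage, rose by 3.11, Lipa, the lysosomal acid lipase, by 2.79, the nuclear receptor gene Nr1h3 (LXRα) by 2.28 and the cholesterol exporter Abca1 by 1.59. Apoc1 and Apoc4, neighbors of Apoe in the genome, were called in IS at 3.01 and 3.15, and neither was called without IS replicate 4 (2.08, adjusted p = 0.0716, and 2.09, adjusted p = 0.168). Of the receptors that take up Apoe, Lrp1 had a log2 fold change in IS of 0.17, not called, and Vldlr one of -1.69, which was called.

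Families and binding partners of the other members were read over 20 tested genes of 21, of which 13 were called higher in IC, 15 in IS and 15 in IS-HA. Cd44, the receptor of osteopontin, rose by 4.14 in IS, whereas the log2 fold change of the integrin chain Itgav was -0.43. Itgb2, the partner chain of CD11c, rose by 4.34. Lgals1, a second galectin, rose by 5.36, while Lgals9 stood at 0.40, not called. Ctsc, the cathepsin that cystatin F restrains most directly, rose by 5.10, and Cst3, the cystatin of resting brain, stood at 0.20, not called. Among tetraspanins Cd53 rose by 3.79, Cd37 by 3.53 and Cd151 by 1.69, all above the 1.18 of Cd9. Cd81 was called lower in IS at -2.94, from a mean of 2.08 TPM in Normal, a level so low for this widely expressed gene that whether the gene model captures it is uncertain.

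Other genes of the same activation program, 22 tested of 23, included 17 called higher in IC and 18 in both IS and IS-HA, and the list's median was 2.27, 3.01 and 2.91 on the log2 scale. Lilrb4 (10.67 in IS) and Clec7a (9.87), surface receptors with inhibitory and activating signals, rose most, and the reads of Lilrb4 are uncertain because near-identical family members exist. Ankh (-0.75) and Cadm1 (-0.55) had the lowest values and were not called.

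Transcription factors placed above this program numbered 13 tested of 15, with 7 called higher in IC, 10 in IS (7 without IS replicate 4) and 7 in IS-HA. Tfec, a phagocyte member of the MiT family, rose by 6.41 in IS, from near absence at 0.081 TPM on average in Normal to 7.93 TPM. Its relatives of lysosome control were lower in the order, with 1.497 for Tfeb, 1.09 for Mitf and 0.47 for Tfe3, the last not called. Spi1 (PU.1) rose by 4.53 and Runx1 by 4.71, while Bhlhe40 (0.46) and Bhlhe41 (0.10) were not called.

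Of 11 homeostatic microglial genes, which fall in this state in mouse models of chronic disease, 7 were called higher in IC, 6 in IS and 7 in IS-HA (5 without IS-HA replicate 2) and none lower. Siglech, at 0 counts in both Normal rats, stood at least 18.0-fold higher in IS, and Slc2a5, a sugar transporter, rose by 2.21 on the log2 scale. The lowest values were those of P2ry13, a nucleotide receptor, at -0.04 and of Tmem119 at -0.38, not called. Genes listed as monocyte markers were higher as well: all 8 were called higher in each group and summed to 22.8 to 23.0 TPM in Normal, 84.4 to 176 in IC, 132 to 258 in IS and 109 to 134 in IS-HA. Cd163, among them, was counted by the authors in microglia, so the list is not confined to blood-derived cells. The 8 neutrophil genes summed to 2.29 to 2.62 TPM in Normal, 68.4 to 243 in IC, 479 to 685 in IS and 148 to 844 in IS-HA, with 2 of them at 0 in Normal and 1 in each of IC and IS. The part of monocytes and neutrophils in the members' levels was not tested. No gene of any of these lists was called in IS against IC, IS-HA against IS or IS-HA against IC.

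**Figure D5:**
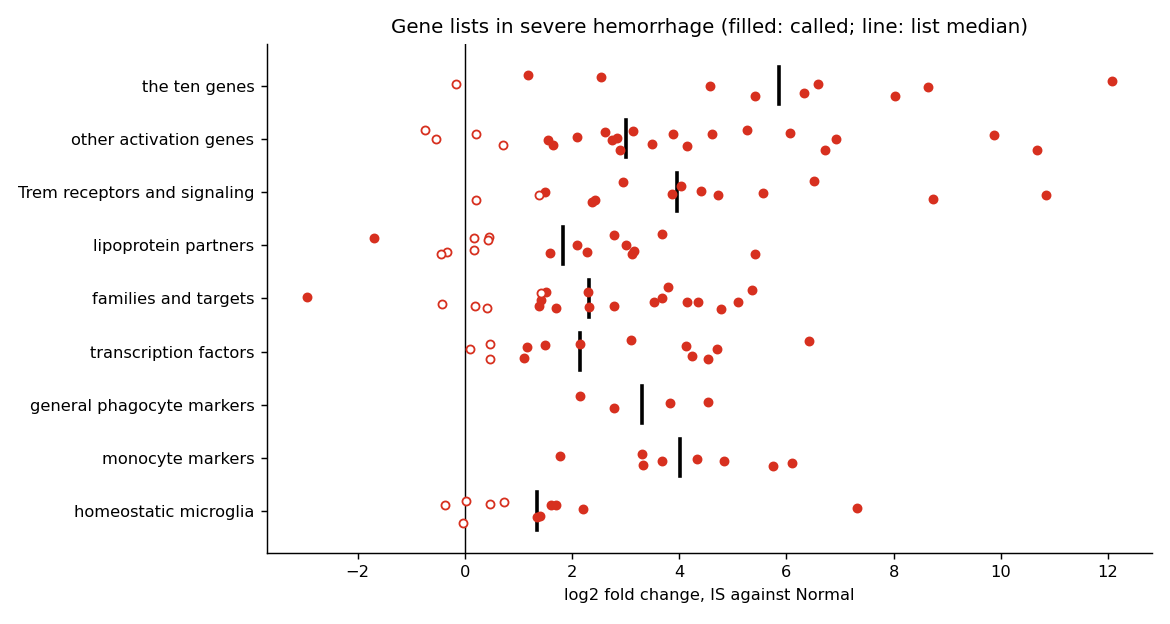
Each point is the log2 fold change of a tested gene in IS against Normal, filled where called, with a vertical line at the median of each list. The line of the 10 genes is at 5.86, that of the other activation genes at 3.01 and that of the homeostatic microglial genes at 1.34.

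Because most members rose together, the promoter windows of RefSeq (250 bases before to 50 after the gene start, rat assembly GRCr8, whereas the deposited counts use mRatBN7.2) were searched on both strands for 3 short motifs. Windows were found for 7 of the 10 genes, 9 in all with 3 for Apoe. Tyrobp, Lgals3 and Lpl were not matched. The core of PU.1, GAGGAA, lay in 4 of 9 windows and in 27.6% of all 33469 windows. The MiT-type E-box CACGTG lay in 0 of 9 and 6.42% of all, and the AP-1 motif TGANTCA lay in 4 of 9 and 7.33% of all, in Trem2, Gpnmb, Cst7 and Itgax. These 4 windows are shown to place the TGANTCA matches, which with any PU.1 matches are in capitals, 5′ to 3′ along the gene strand. They are Trem2 at chr9:20151730-20152029 on the minus strand, Gpnmb at chr4:79340878-79341177, Itgax at chr1:192149799-192150098 and Cst7 at chr3:159857030-159857329, the last 3 on the plus strand.
Trem2: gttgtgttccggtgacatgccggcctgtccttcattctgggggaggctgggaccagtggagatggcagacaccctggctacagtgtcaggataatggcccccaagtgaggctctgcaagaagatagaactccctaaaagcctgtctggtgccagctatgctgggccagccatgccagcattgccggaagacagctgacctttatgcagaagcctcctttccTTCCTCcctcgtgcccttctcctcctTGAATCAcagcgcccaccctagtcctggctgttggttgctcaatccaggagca
Gpnmb: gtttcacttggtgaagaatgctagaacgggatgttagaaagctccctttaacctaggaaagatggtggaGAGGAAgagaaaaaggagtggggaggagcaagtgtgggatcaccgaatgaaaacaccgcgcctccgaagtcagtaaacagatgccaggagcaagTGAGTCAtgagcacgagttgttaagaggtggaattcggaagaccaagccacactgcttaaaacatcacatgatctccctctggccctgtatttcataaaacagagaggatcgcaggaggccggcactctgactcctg
Itgax: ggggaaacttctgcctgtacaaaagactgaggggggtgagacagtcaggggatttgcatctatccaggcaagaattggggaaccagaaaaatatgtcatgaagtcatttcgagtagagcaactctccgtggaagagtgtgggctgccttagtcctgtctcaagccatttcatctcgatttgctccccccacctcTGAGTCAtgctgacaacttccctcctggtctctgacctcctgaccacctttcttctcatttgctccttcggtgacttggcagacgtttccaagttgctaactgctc
Cst7: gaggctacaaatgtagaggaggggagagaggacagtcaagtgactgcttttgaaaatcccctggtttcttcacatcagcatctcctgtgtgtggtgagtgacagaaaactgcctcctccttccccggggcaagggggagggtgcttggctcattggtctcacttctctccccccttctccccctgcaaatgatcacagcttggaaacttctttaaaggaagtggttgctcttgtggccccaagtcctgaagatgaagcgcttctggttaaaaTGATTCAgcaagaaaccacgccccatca
The first base of the TGANTCA match lay at -3 from the start in Trem2, at -87 in Gpnmb and at -56 in Itgax, and 22 bases into the gene in Cst7. Trem2 and Gpnmb also held the PU.1 core, at -29 and -181. A match of letters is a description and not a binding site, and no measurement of binding was made in these rats.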

How the data were processed

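Poly(A) RNA of the striatum of 11 rats was sequenced as paired-end reads of 150 bases from a stranded kit. For each gene and rat 2 values were deposited: read counts as whole numbers, with no scaling or filter by the authors, and TPM, which the authors scaled by gene length to the same sum in each rat. The submitters' processing notes name fastp 0.20.0, FastQC 0.11.9, HISAT2 2.1.0, SAMtools 1.9, featureCounts and the build mRatBN7.2; the strand setting of the counting is not given in the sources used here. All columns were matched to rats by library name.

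Counts were filtered with filterByExpr, scaled by TMM and tested with the quasi-likelihood F test of edgeR 4.0.16 (R 4.3.3) in 1 fit over the 4 groups, which share an estimate of spread (common dispersion 0.0691), with Benjamini-Hochberg adjustment over 15742 genes. A call needed an adjusted p under 0.05 and an absolute log2 fold change of at least 1. Standard errors were taken as |log2 fold change|/√F. Ratios to phagocyte markers used log2(CPM + 0.5) and two-sided exact permutation tests (scipy 1.17.1). Intervals and the floor of 3 counts cover counting error only, since the reads carry no molecular identifiers.

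The members and all gene lists were chosen with earlier results of these data known. All members are named; of the other lists, direct partners, paralogs and regulators and the 2 largest and 2 smallest changes in IS, and the 5 genes closest to Trem2. Alternatives were DESeq2 size factors, library size, TMM without 5 hemoglobin and mitochondrial genes, no filter, at least 10 counts in every rat, DESeq2 1.42.0, limma 3.58.1 (voom with quality weights, or trend on log2(TPM + 1) or log2(TPM + 0.1)), only the groups compared, a replicate block, each rat left out, fold limits of 0 and 0.5, and other markers or a pseudocount of 0.1. The edgeR, DESeq2 and voom scripts were tested on simulated data. Gene list calls without IS replicate 4 or IS-HA replicate 2 were added after the data were seen.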

Additional observations from a re-analysis of the deposited data

How the results depend on the processing

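The counts of members called against Normal stayed within 6 to 9 in IC, 8 to 9 in IS and 7 to 9 in IS-HA when each rat was left out, and the members that dropped out were Apoe, Cst7 and Cd9. Shares of all tested genes called against Normal were not computed for these fits, so the ranges are not read as particular to the members. In IS against IC the number of members called was 0 in the reported fit, 2 with DESeq2's Wald test, 3 with voom and quality weights, and 0 to 3 when each rat was left out, reaching 3 without IS-HA replicate 2. In IS-HA against IS and IS-HA against IC it was 0 under every alternative run. Members standing apart relative to the phagocyte markers were counted in either direction. In IS against IC there were 3 with Aif1 alone, 2 above and 1 below. There were 5 to 8 over the rats left out, and the 8 without IS replicate 2 were 7 above and 1 below. In IS-HA against IS there were 4 with Aif1 alone, and 0 to 7 over the rats left out. The 7 without IS-HA replicate 2 were 6 below and 1 above. The shares of all genes for the 3, the 8 and the 7 are given with the results. No share was computed for the 4 or for the other rats left out, and nothing is read from those counts. The cause of these shifts was not tested. Depth limits Cst7 and Itgax most, with 3 and 10 counts over both Normal rats. With at least 10 counts required in every rat, neither was tested.

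The replicate numbers mark different animals, and the correlation, across genes, between deviations from the group mean ranged from -0.506 to 0.394 for equal numbers, so they were not treated as pairs. With the replicate number as a block, members called were 6 in IC, 8 in IS and 8 in IS-HA against Normal and 0 in each comparison between hemorrhage groups. The shares of all tested genes called with the block were not computed, so these counts are not read as particular to the members. Apoe was then not called in IS (log2 fold change 1.66, adjusted p = 0.172) or IS-HA (1.57, adjusted p = 0.155), nor Cst7 (4.36, adjusted p = 0.0670) or Cd9 (1.17, adjusted p = 0.0816) in IC. Uncalled values changed sign with the block for Lpl in IC (0.095), IS (0.16) and IS-HA against IS (-0.054), for Trem2 (0.043) and Cst7 (0.0019) in IS-HA against IS, and for Cd9 in IS-HA against IC (-0.019).

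The other values that changed sign were small and uncalled in the reported fit. In IS-HA against IC, voom with quality weights gave -0.093 for Trem2 and -0.28 for Apoe, and Cd9 was close to 0 with library size alone, limma-trend on log2(TPM + 1) or log2(TPM + 0.1), or only the groups compared (-0.0110, -0.0105, -0.0103 and -0.0123), and at -0.00140 with no filter. Lpl in IS-HA against Normal was at -0.0186 with DESeq2 size factors, -0.0160 with DESeq2 and -8.06e-05 with only the groups compared. Lpl in IS against IC was at -0.0135 and -0.0142 on log2(TPM + 1) and log2(TPM + 0.1). Relative to markers, Cst7 in hemorrhage against Normal was at 0.87 with Csf1r alone and 1.42 with a pseudocount of 0.1, Trem2 at -0.069 in IS against IC with Aif1 alone and 0.14 in IS-HA against IS with Itgam and Ptprc, and Cd9 at -0.018 in IS-HA against IS with Csf1r alone.

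Over the rats left out, log2 fold changes in IS-HA against IS ranged from -0.88 to 0.16 for Trem2, -1.49 to 0.12 for Apoe and -0.17 to 0.017 for Cd9. In IS-HA against IC they ranged from -0.17 to 0.74 for Trem2, -0.0080 to 0.996 for Tyrobp, -0.38 to 0.87 for Apoe and -0.12 to 0.24 for Cd9. In IS against IC they ranged from -0.062 to 0.21 for Lpl and -0.063 to 0.28 for Cd9, and in IS-HA against Normal from -0.12 to 0.15 for Lpl. Relative to markers, Cst7 ranged from -0.31 to 0.28 in hemorrhage against Normal and -0.78 to 0.11 in IS-HA against IS, and Trem2 from -0.46 to 0.18 in IS-HA against IS.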
